A study of Homo sapiens with 6 samples.

Results

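Interferon-stimulated genes are the genes that cells switch on after an interferon signal, and 49 of them, listed by name, were followed here through single-cell RNA libraries of 2 cancer cell lines adapted to a targeted drug. The count tables of the lines together name 16663 genes. The A375 table holds all 49 listed genes, and 48 are in that of PC9, which has no entry for CMPK2. A gene was described further where it reached at least 10 CPM (counts per 1000000 UMIs, a share of all counted molecules of a population) in at least 1 population of a line. That left 34 members in A375, where 10421 of all 15945 genes passed the same minimum, and 39 in PC9, where 9990 of 15429 did. The minimum was passed in both lines by 31 members, in A375 alone by IFI44, IFIT5 and IFITM2, and in PC9 alone by DDX60, EPSTI1, HERC5, IFI27, OAS2, OASL, USP18 and XAF1. CMPK2, IFI44L, IFITM1, IRF7, IRF9, RSAD2 and TRIM22 passed it in neither. Just inside it in PC9 was SAMD9L, with a highest level of 10.2 CPM, and just outside was IFI44L with 8.11 CPM. In A375 these were OAS1 with 10.4 CPM and DDX60 with 8.85 CPM.

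A375 is a human melanoma line with an activating BRAF mutation, and its cells were taken through rising doses of the BRAF inhibitor dabrafenib, giving populations growing in 30, 60, 125, 250 and 500 nM and in 1, 2 and 4 µM beside untreated cells. PC9 is a human lung adenocarcinoma line with an activating EGFR mutation, and its cells were taken through the EGFR inhibitor osimertinib at 8, 16, 32, 75, 150, 300 and 600 nM and 1.2 µM, beside untreated cells. PC9 persisters are the cells that remained after acute exposure to 1.2 µM for 9 days. All populations of a line carry the same driver mutation, were tagged with lipid-linked barcodes, pooled and captured together, and each is 1 culture. No spread between cultures can therefore be had, and no p-value is given. Differences are described by their size, as the difference in log2(CPM + 1) or as a ratio of CPM with its 95% exact counting interval, which covers counting error alone. All treated populations of a line are set against the same untreated culture.

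Type I interferons bind IFNAR1 and IFNAR2 and act through the kinases JAK1 and TYK2, which phosphorylate STAT proteins, STAT2 among them. With IRF9 these form a complex that binds a short DNA motif, the interferon-stimulated response element, in the promoters of its targets. Interferon gamma uses other receptors and acts through the GAS motif, for example in the promoter of IRF1. The products of the targets recognise viral RNA, degrade or mask it, block entry and assembly of viruses, and feed back on the pathway, and tumour cell lines can express them without infection.

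The letters of the response element were searched in RefSeq promoter windows (250 bases before to 50 after each start, GRCh38.p14) on both strands as GAAA, any 2 bases and GAAA again, and those of the GAS element as TTCNNNGAA, a pattern that reads the same on both strands. Of the 49 members, 40 matched a RefSeq window by symbol, among them DDX58 under the name RIGI. The response element letters were found for 27 of them (67.5%), against 4.38% of 27305 genes with a window. The GAS letters were found for 12 (30.0%), against 9.38%. The windows shown are those of genes on which the results turn: MX1, OAS3 and BST2, whose levels in adapted and persister PC9 cells were far apart, IFI6 and EPSTI1, which were high in both, IRF1, which was highest in persisters, and GBP1 and ISG20, which had the largest differences in A375. Capitals mark the motif, and TTTC, 2 bases and TTTC is the response element read on the other strand.
MX1 (chr21:41420559-41420588, plus strand): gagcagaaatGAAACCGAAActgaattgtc
OAS3 (chr12:112938321-112938350, plus strand): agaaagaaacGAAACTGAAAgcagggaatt
BST2 (chr19:17405741-17405770, minus strand): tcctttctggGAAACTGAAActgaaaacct
IFI6 (chr1:27672329-27672358, minus strand): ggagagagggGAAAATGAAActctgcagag
EPSTI1 (chr13:42992272-42992301, minus strand): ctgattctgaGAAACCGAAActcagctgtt
GBP1 (chr1:89065316-89065345, minus strand): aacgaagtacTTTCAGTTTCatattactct
ISG20 (chr15:88638937-88638966, plus strand): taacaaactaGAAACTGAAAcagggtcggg
IRF1, GAS letters (chr5:132490879-132490907, minus strand): acagcctgatTTCCCCGAAatgacggcac
A match is a description of these letters and not a binding site. Of the genes shown, MX1, BST2 and EPSTI1 also held the GAS letters, which are not shown for them. GBP1 did not hold the GAS letters, and IRF1 did not hold those of the response element. ISG20 holds the same core letters as BST2 and OAS3, and in A375 its level went the other way from that of BST2.

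The tables held 8505 A375 cells, 379 to 2011 per population, and 11258 PC9 cells, 823 to 1410 per population, with 87053189 and 77210300 UMIs. The median cell had 7337 to 9804 UMIs in the A375 populations and 5776 to 7968 in PC9, least in the persisters. No cell barcode occurred in more than 1 population of a line, and 27 occurred in both lines. Against their labels, in PC9 all 5 epithelial marker genes of the table (KRT8, KRT18, KRT19, EPCAM and CDH1) reached 10 CPM in a population, summing to 5878 to 7393 CPM. The lung markers NKX2-1 and SFTPB were not among the genes of the PC9 table. In A375 4 of 7 melanocyte markers reached 10 CPM in a population, summing to 178 to 773 CPM, with TYR under 1 CPM in each. Of 10 leukocyte markers, 6 were in the A375 table with a sum of 12.0 to 34.4 CPM and 4 in the PC9 table with a sum of 16.6 to 32.1 CPM, highest in untreated cells. PTPRC, which defines leukocytes, stayed under 1 CPM in every population of both lines.

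In PC9, nearly every member was lowest in the untreated culture and most were highest in the population growing in 1.2 µM osimertinib. Of the 39 members, 33 were lowest in untreated cells, as were 30.7% of all genes passing the minimum, and 26 were highest at 1.2 µM, as were 7.02% of all genes. At 1.2 µM 27 of 39 members were at least 2-fold higher than in untreated cells, a size reached by 6.50% of 9990 genes, and none was 2-fold lower, a size reached by 3.76%. The median difference of the members was 1.60 on the log2(CPM + 1) scale, against 0.03 over all genes. Because a gene could pass the minimum through the treated culture alone, the count was also taken over all 48 members in the table, of which 33 were higher, against 5.74% of all genes with no minimum, and none lower, against 3.44%. Among the 30 members with a mean of at least 10 CPM over the 10 populations, 20 were higher. The share of all genes under that rule is not reported here.

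**Figure D1:**
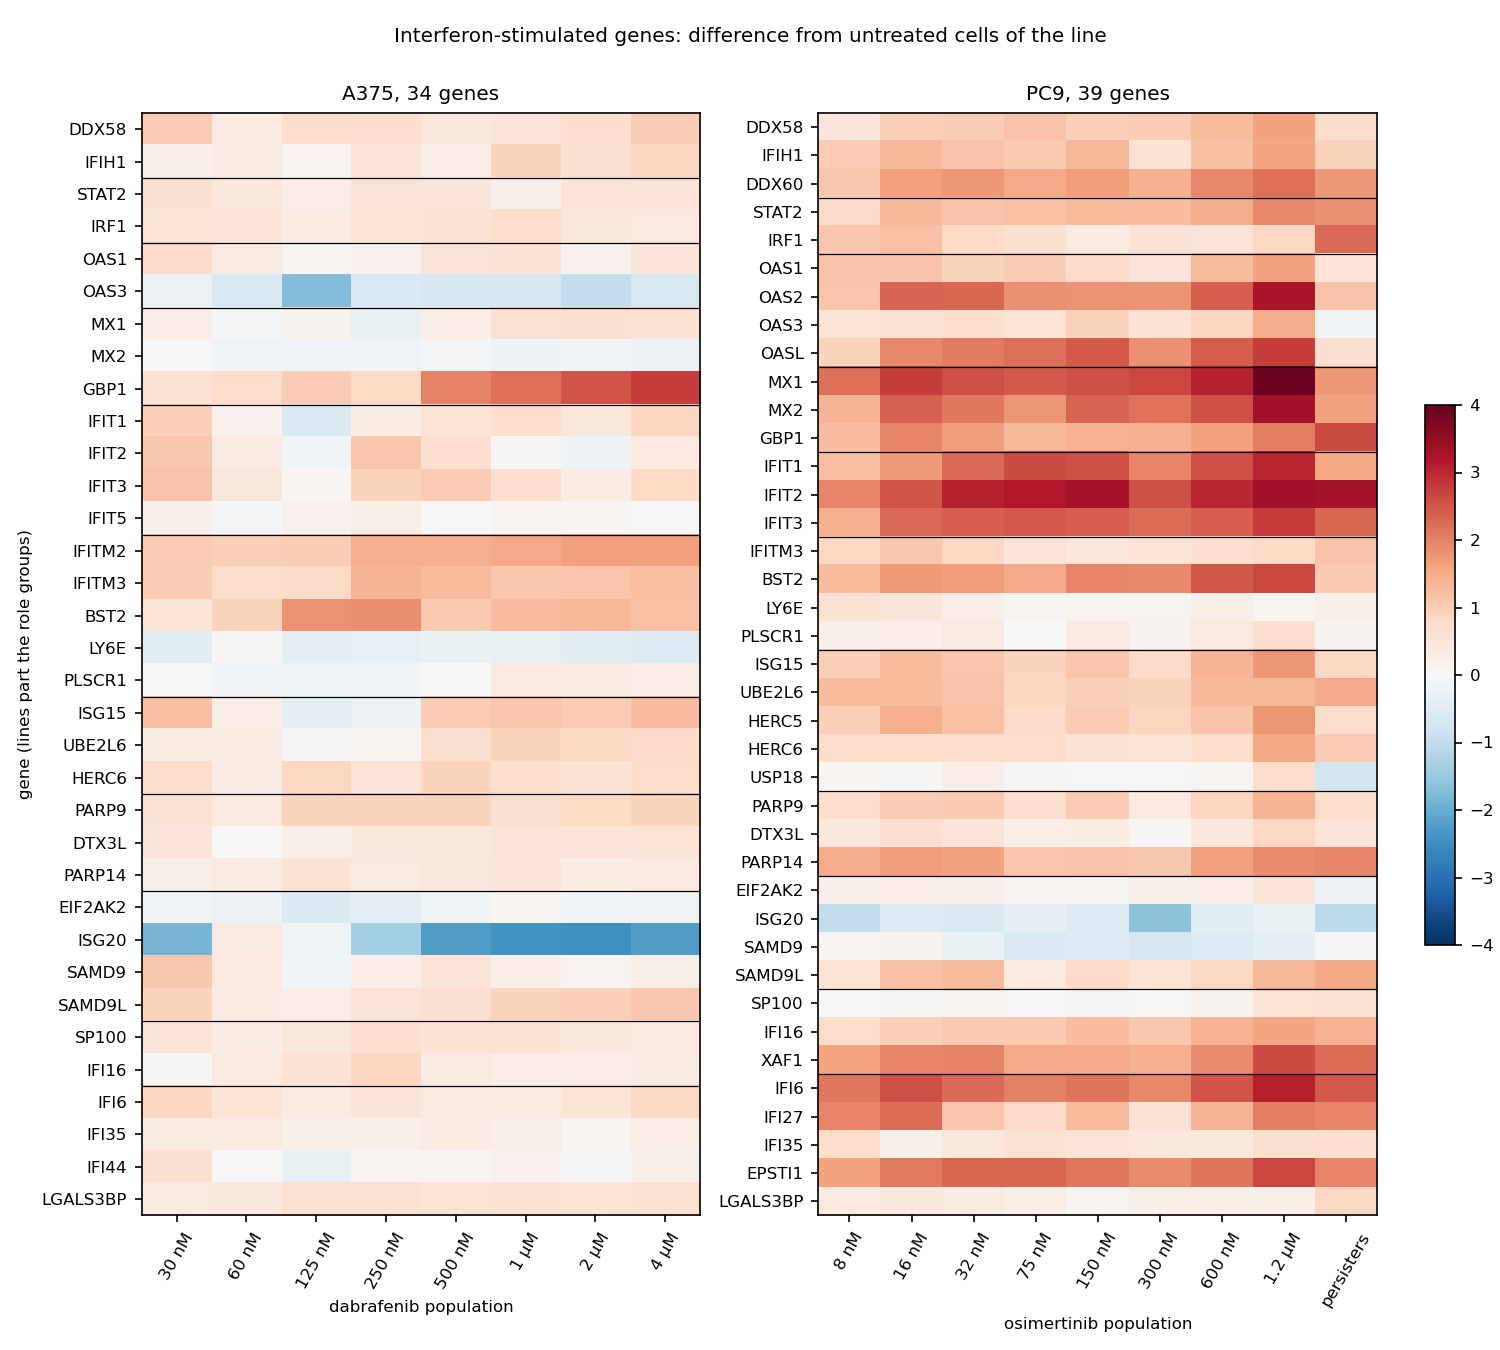
Difference in log2(CPM + 1) from the untreated culture for each member (lines) in each treated population (columns), for A375 (34 members) and PC9 (39 members), with members grouped by role and colours from -4 to 4. PC9 colours are almost all on the higher side and strongest at 1.2 µM, while the A375 panel is paler, with GBP1 higher and ISG20 lower at the upper doses.

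The lowest dose already carried much of it. At 8 nM 17 of 39 members were 2-fold higher (background 3.71%) and none 2-fold lower (1.67%), with a median of 0.94 against 0.02 over all genes. Over all 48 members in the table, 18 were higher (2.96%) and none lower (1.75%). The largest folds there, among members with at least 25 CPM, were those of PARP14 (2.91, interval 2.44 to 3.47), UBE2L6 (2.50, 2.12 to 2.96), IRF1 (2.23, 1.76 to 2.83), ISG15 (1.96, 1.72 to 2.23) and IFITM3 (1.79, 1.59 to 2.01). The smallest were those of SP100 (0.980, 0.873 to 1.10), SAMD9 (1.07, 0.881 to 1.30), EIF2AK2 (1.16, 1.07 to 1.26), PLSCR1 (1.19, 1.03 to 1.37) and LGALS3BP (1.32, 1.21 to 1.43).

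Between these doses the number of 2-fold higher members did not follow the dose. In order of dose from 16 to 600 nM it was 24 (background 4.97%), 23 (5.56%), 18 (5.95%), 20 (5.66%), 17 (6.42%) and 23 (6.60%). No member was 2-fold lower at 16 nM (background 1.87%), 32 nM (2.34%), 75 nM (2.99%), 150 nM (3.34%) or 600 nM (3.69%), and ISG20 was at 300 nM (3.71%). The summed level of the members without the 5 most abundant (LY6E, LGALS3BP, EIF2AK2, ISG15 and IFITM3) took the same course. It was 364 CPM in untreated cells, then 647, 778, 758, 667, 714, 624, 803 and 1083 CPM in order of dose from 8 nM to 1.2 µM, and 838 CPM in persisters. The sum at 1.2 µM was 2.98 times that of untreated cells (2.86 to 3.09) and that of persisters 2.30 times (2.20 to 2.41). With all 48 members the ratios were 2.03 and 1.75. Of the 5, LY6E, LGALS3BP and EIF2AK2 were at 1.06 to 1.40 times the untreated level at 1.2 µM, IFITM3 at 1.76 and ISG15 at 3.35.

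**Figure D2:**
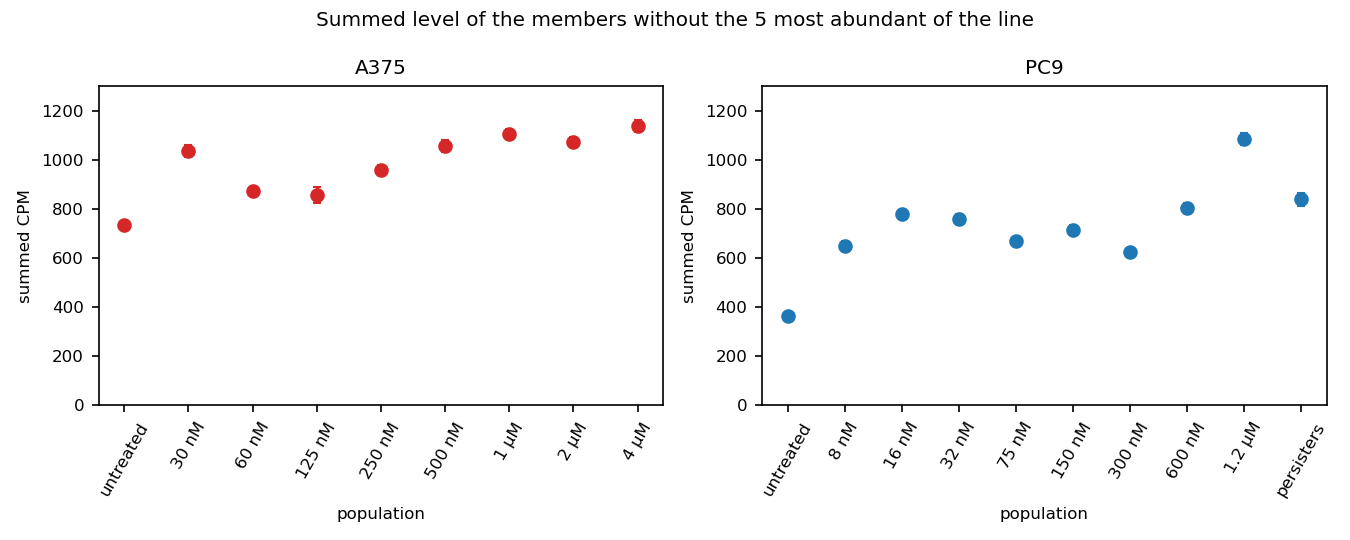
Summed level, in CPM, of the members without the 5 most abundant in each A375 and PC9 population, with 95% Poisson intervals that cover counting error alone. In PC9 the sum goes from 364 CPM in untreated cells to 1083 CPM at 1.2 µM with a dip at 300 nM, and in A375 from 736 to 1137 CPM.

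The RNA sensors were higher in PC9 at 1.2 µM as a group, 3 of 3 by at least 2-fold. DDX58 encodes RIG-I, which detects short double-stranded RNA ends, and its level was 8.62 CPM in untreated cells, 12.4 to 22.3 CPM from 8 to 600 nM, 28.5 CPM at 1.2 µM and 15.1 CPM in persisters. IFIH1, the sensor of long double-stranded RNA, was 3.79 CPM untreated and 13.2 CPM at 1.2 µM. DDX60, a helicase linked to RIG-I signalling, went from 6.35 to 33.1 CPM. Of the transcription factors, STAT2 was 6.63 CPM in untreated cells, 12.1 to 20.5 CPM from 8 to 600 nM, 28.0 CPM at 1.2 µM and 26.1 CPM in persisters. Every treated culture was above the untreated one, and the lowest was at 8 nM. IRF7 and IRF9, which amplify the response, were under the minimum in every PC9 population. IRF9 was 0.948 CPM in untreated cells, 6.35 CPM at 1.2 µM (6.70-fold, 3.34 to 14.9) and 1.83 CPM in persisters, and IRF7 was at or under 4.67 CPM.

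The GTPases, which trap viral particles or attack membranes around pathogens, had the highest median of the groups at 1.2 µM, 3.37 on the log2 scale. MX1, which blocks influenza-like viruses, was 2.94 CPM in untreated cells, then 17.2, 25.7, 22.4, 20.6, 22.7, 24.1, 32.6 and 58.3 CPM in order of dose, and 12.0 CPM in persisters. The 1.2 µM culture stood apart from all others, and its level was 19.8 times that of untreated cells (13.8 to 29.5). The untreated level rests on 31 UMIs. MX2, which acts on lentiviruses and herpesviruses, was 0.948 CPM in untreated cells, 4.03 to 10.4 CPM from 8 to 600 nM, 19.2 CPM at 1.2 µM and 4.89 CPM in persisters. GBP1 is a typical target of interferon gamma. It went another way from MX1, with 2.65 CPM in untreated cells, 14.1 CPM at 1.2 µM and its highest PC9 level, 21.6 CPM, in persisters.

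The oligoadenylate synthetases make the second messenger that activates RNase L, and 4 of 4 were at least 2-fold higher at 1.2 µM. OAS1 was 4.55 CPM in untreated cells and 15.8 CPM at 1.2 µM, OAS2 0.474 and 13.2 CPM, OAS3 8.72 and 26.2 CPM, and OASL, a relative without synthetase activity, 1.99 and 19.2 CPM. In persisters they were 6.93, 2.24, 7.95 and 3.67 CPM. OAS2 was there past 2-fold above untreated cells (4.73-fold, 1.51 to 17.4) but on 11 UMIs, under the 20 needed for a call, and the other 3 were under 2-fold. The IFIT proteins bind foreign RNA caps and ends. IFIT2 was 2.08 CPM in untreated cells, then 11.0, 16.7, 25.6, 27.1, 29.3, 17.1, 23.9 and 30.5 CPM in order of dose, and 29.1 CPM in persisters. From 32 nM on, with the exception of 300 nM, its levels lay close together, and the fold at 1.2 µM was 14.7 (9.44 to 23.8). IFIT1 and IFIT3 were 14.3 and 23.8 CPM at 1.2 µM, from 0.853 and 2.56 CPM. IFIT5, under the minimum in PC9, went from 1.90 to 6.08 CPM (3.21-fold, 1.86 to 5.74).

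ISG15 is a ubiquitin-like protein, UBE2L6 and HERC5 join it to its targets, and USP18 removes it. ISG15 was 41.2 CPM in untreated cells, 71.5 to 108 CPM from 8 to 600 nM, 138 CPM at 1.2 µM and 74.8 CPM in persisters. HERC5 went from 6.63 to 25.3 CPM and its relative HERC6 from 5.78 to 18.9 CPM, while USP18 was 6.35 and 10.9 CPM, under 2-fold. PARP14, a mono-ADP-ribosyltransferase, went from 19.2 to 74.5 CPM and PARP9 from 11.8 to 31.9 CPM. DTX3L, which forms a ubiquitin ligase with PARP9, was 18.8 and 33.8 CPM. PARP9 and DTX3L lie head to head on chromosome 3 and overlap at their starts.

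The smallest differences were in membrane proteins and in effectors on nucleic acids and translation, with group medians of 0.74 and 0.10 at 1.2 µM. SAMD9, a translation repressor, had a ratio of 0.753 (0.610 to 0.928), LY6E of 1.06 (0.989 to 1.13), LGALS3BP, a secreted glycoprotein, of 1.14 (1.05 to 1.24), EIF2AK2, which encodes the kinase PKR, of 1.40 (1.29 to 1.51) and SP100, a component of nuclear bodies, of 1.48 (1.34 to 1.64). BST2, known as tetherin, was the exception among the 4 membrane proteins past the minimum, with 1.23 CPM in untreated cells and 13.2 CPM at 1.2 µM. IFITM3, which blocks fusion in endosomes, was 52.3 and 92.3 CPM. IFITM1, IFITM2 and IFITM3 are near-identical, and the annotations of IFITM1 and IFITM2 overlap, so reads could be split between them and their separate levels are uncertain. IFITM1 and IFITM2, both under the minimum in PC9, went from 0.379 and 0.474 CPM to 2.84 and 3.65 CPM at 1.2 µM, past 2-fold. Other members with large ratios at 1.2 µM were IFI6 (4.07 to 42.7 CPM, 10.5-fold, 7.60 to 14.8), EPSTI1 (6.16 to 45.0 CPM, 7.31-fold, 5.59 to 9.68) and XAF1 (4.74 to 33.9 CPM, 7.16-fold, 5.27 to 9.90). IFI6 is a mitochondrial and endoplasmic reticulum protein, and XAF1 promotes apoptosis. IFI44L went from 0.284 to 8.11 CPM, IFI44 from 1.61 to 7.30 CPM and IFI27 from 3.51 to 17.7 CPM. RSAD2, the viperin gene, stayed at or under 0.562 CPM.

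In persisters 19 of 39 members were at least 2-fold higher than in untreated cells, where 10.6% of all genes were, and ISG20 was 2-fold lower, as were 9.37%. That call rested on levels of 11.9 and 5.30 CPM and was lost in 7 of 15 alternative settings. Over all 48 members 22 were higher (8.63%) and 1 lower (7.41%). The median was 1.06. Of the 27 members that were higher at 1.2 µM, 17 were also called higher in persisters and 10 were not. Of the 10, OAS2 and BST2 were past 2-fold there on 11 and 18 UMIs, under the 20 needed, and the other 8 were under 2-fold on the log2(CPM + 1) scale. IFITM3 and IRF1 were called in persisters and not at 1.2 µM. At lower doses IRF1 was also called higher at 8 and 16 nM, and IFITM3 at 16 nM. These counts rest on the same untreated culture, and how many of all genes were called in both was not counted. The largest folds among members with at least 25 CPM were those of IFIT2 (14.0, 8.88 to 23.0), IFI6 (6.60, 4.65 to 9.54), XAF1 (5.42, 3.88 to 7.68), IRF1 (5.18, 4.19 to 6.44) and EPSTI1 (4.30, 3.17 to 5.88). The smallest were those of EIF2AK2 (0.844, 0.761 to 0.935), SAMD9 (0.957, 0.764 to 1.19), PLSCR1 (1.10, 0.935 to 1.29), LY6E (1.15, 1.07 to 1.24) and DTX3L (1.44, 1.15 to 1.81).

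Persisters and adapted cells were also compared at the same 1.2 µM dose. Of the 39 members 10 were at least 2-fold lower in persisters, where 4.24% of all genes were, namely OAS1, OAS2, OAS3, OASL, MX1, MX2, IFIT1, BST2, HERC5 and USP18. IRF1 alone was 2-fold higher, as were 3.92% of all genes. Over all 48 members 13 were lower (3.43%) and 2 higher (3.38%). Among the members with a mean of at least 10 CPM, 4 of 30 were lower, and the share of all genes under that rule is not reported here. MX1 was 4.85-fold lower in persisters (3.69 to 6.47), OAS3 3.30-fold (2.33 to 4.78), HERC5 2.18-fold (1.61 to 2.98), DDX58 1.89-fold (1.44 to 2.50) and ISG15 1.85-fold (1.64 to 2.09).

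Of the 39 members 28 were below their 1.2 µM level in persisters, most of them by less than 2-fold, and 11 were above it. EPSTI1, for example, was 1.70-fold lower (1.38 to 2.10) and EIF2AK2 1.65-fold (1.49 to 1.83). Some members were level or higher in persisters, among them genes of the same roles as those that were lower. GBP1 was 1.54 times its level at 1.2 µM (1.16 to 2.03). IRF1, a transcription factor that interferon gamma induces, was 11.8 CPM in untreated cells, then 26.2, 27.4, 21.3, 19.0, 15.8, 18.2, 17.5 and 21.9 CPM in order of dose, and 60.9 CPM in persisters. The persister level stood above all 9 other cultures and was 2.78 times that at 1.2 µM (2.29 to 3.39). Among members with at least 25 CPM, LGALS3BP followed with 1.55 (1.42 to 1.69), IFITM3 with 1.27 (1.13 to 1.42), UBE2L6 with 1.13 (0.975 to 1.31) and LY6E with 1.09 (1.01 to 1.18). PARP14, STAT2 and IFIT2 were nearly level, with 77.2, 26.1 and 29.1 CPM in persisters. The group median was -1.86 for the oligoadenylate synthetases, -1.78 for the GTPases and -0.50 for the IFIT genes, and 0.67 for the pair of transcription factors, with members of 1 role on both sides: MX1 was at -2.19 and GBP1 at 0.59, and IFIT1 at -1.48 and IFIT2 at -0.07. Differences between roles were not tested. Members with the response element letters had a median of -0.64 (22 genes) and the other matched members -0.10 (11 genes). For the GAS letters the medians were -0.51 (10 genes) and -0.50 (23 genes). At 1.2 µM against untreated cells 68.2% of members with the response element letters and 72.7% of those without were 2-fold higher, with medians of 1.75 and 1.55.

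**Figure D3:**
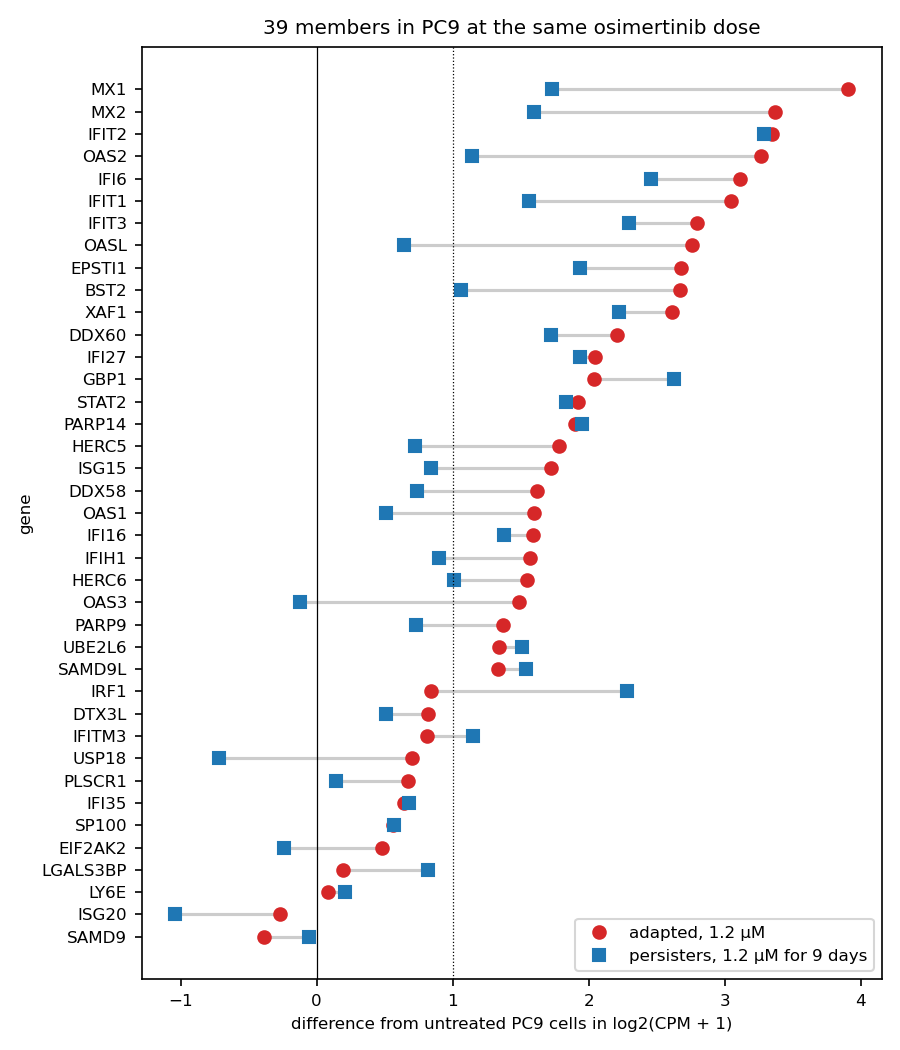
Difference from untreated cells in log2(CPM + 1) for each of the 39 PC9 members at 1.2 µM (dots) and in persisters (squares), ordered by the value at 1.2 µM, with a dotted line at 1, the 2-fold limit. Dots lie far to the right of squares for MX1 and the oligoadenylate synthetases, and the square lies to the right for IRF1 and GBP1.

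In A375 fewer members differed from untreated cells. At 4 µM dabrafenib 6 of 34 were at least 2-fold higher (GBP1, IFITM2, IFITM3, BST2, ISG15 and SAMD9L), where 5.63% of 10421 genes were, and ISG20 was 2-fold lower, as were 8.81%. Over all 49 members 11 were higher (5.24%) and 2 lower (7.22%). The median was 0.55, against -0.16 over all genes. That last value was -0.06 when totals were scaled by the trimmed mean of M values, and -0.03 with median-of-ratios scaling, so the members' median is read relative to it. In order of dose from 30 nM to 2 µM the count was 5 (background 4.35%), 0 (1.93%), 1 (3.69%), 4 (3.98%), 6 (5.11%), 5 (5.03%) and 5 (5.31%). A single member was 2-fold lower in each of these cultures but that at 60 nM, where 1.01% of all genes were. It was OAS3 at 125 nM (background 6.36%) and ISG20 elsewhere, with backgrounds of 4.82% (30 nM), 5.34% (250 nM), 6.68% (500 nM), 8.68% (1 µM) and 9.54% (2 µM). Of the 34 members 20 were lowest in the untreated culture, as were 13.3% of all genes.

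GBP1 had the largest ratio at 4 µM among the 34 A375 members past the minimum. Under it, EPSTI1 went from 0.455 CPM in untreated cells to 7.59 CPM (16.7-fold, 8.46 to 36.6, on 10 and 58 UMIs). The GBP1 level was 11.8 CPM in untreated cells, then 18.1, 20.1, 24.5, 21.1, 49.4, 57.5, 72.1 and 85.4 CPM in order of dose. The levels from 500 nM on lay above all lower doses and were ordered by dose, and the fold at 4 µM was 7.24 (6.26 to 8.40). ISG20, a nuclease that degrades RNA, was 220.2 CPM in untreated cells, then 60.5, 281, 195, 85.2, 46.2, 41.4, 39.8 and 46.0 CPM in order of dose. It was high in the untreated, 60 nM and 125 nM cultures and low in the other 6. At 4 µM it was 4.79-fold lower than in untreated cells (4.30 to 5.35), and at 30 nM 3.64-fold (3.30 to 4.03).

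The membrane proteins had the highest A375 group median at 4 µM, 1.16, with 3 of 5 members at least 2-fold higher. IFITM2 was 37.7 CPM in untreated cells and 119.8 CPM at 4 µM (3.18-fold, 2.89 to 3.50), and IFITM3 139 and 322 CPM (2.32-fold, 2.20 to 2.45), with the split between them uncertain as in PC9. BST2 was 9.78 CPM in untreated cells and highest at 125 nM and 250 nM, with 36.4 and 37.8 CPM. ISG15 was 20.4 CPM in untreated cells, then 48.6, 24.5, 15.7, 17.0, 42.5, 45.2, 42.2 and 49.2 CPM in order of dose. It thus had a low stretch from 60 to 250 nM between higher levels on either side, and its fold was 2.41 at 4 µM (2.10 to 2.78) and 2.39 at 30 nM (2.07 to 2.75). PARP9 at 4 µM reached 1.88-fold (1.61 to 2.20). The smallest ratios there beside ISG20 were those of LY6E (0.688, 0.645 to 0.733), MX2 (0.872, 0.753 to 1.01), EIF2AK2 (0.898, 0.830 to 0.970) and SAMD9 (1.18, 1.01 to 1.38).

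At 30 nM 5 members were higher (IFIT2, IFIT3, IFITM2, ISG15 and SAMD9), and over all 49 members 8 were (3.85%) and 1 was lower (4.02%). IFIT3 was 2.30-fold higher (1.91 to 2.78), SAMD9 2.16-fold (1.89 to 2.46), IFITM2 2.04-fold (1.83 to 2.28) and IFITM3 1.99-fold (1.88 to 2.11). LY6E was at 0.744 (0.698 to 0.793), EIF2AK2 at 0.891 (0.821 to 0.965), MX2 at 0.993 (0.859 to 1.14) and PLSCR1 at 1.01 (0.860 to 1.18). Of the 34 members 9 had their highest level at 30 nM, as did 12.2% of all genes. MX1, which had the largest fold at 1.2 µM among PC9 members with at least 25 CPM, was 5.04 to 10.6 CPM across the A375 cultures, and OAS3 was highest in untreated A375 cells with 14.9 CPM. Of the 31 members past the minimum in both lines, BST2, GBP1, ISG15 and SAMD9L were at least 2-fold higher both at 4 µM in A375 and at 1.2 µM in PC9, as were 1.09% of 8954 genes. With no minimum 8 of 48 were, against 1.03%, the others being EPSTI1, IFI27, IFITM2 and XAF1.

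The higher level in PC9 was unequal between cells. Each cell was thinned to 4000 UMIs, which left out 105 cells at 1.2 µM, 175 persisters and 80 untreated cells, and the UMIs of members other than the 5 most abundant were summed. An untreated cell had a mean of 1.49 such UMIs, a cell at 1.2 µM 4.40 and a persister 3.34. The medians were 1, 3 and 3, and the median adapted cell and the median persister were thus level. The variance was 1.17 times the mean in untreated cells, 8.56 times at 1.2 µM and 2.00 times in persisters. Cells with at least 10 such UMIs, a limit chosen after the values were seen, were 1 of 1235 untreated cells (0.0810%, exact binomial interval 0.00205 to 0.450), 90 of 967 at 1.2 µM (9.31%, 7.55 to 11.3) and 12 of 648 persisters (1.85%, 0.960 to 3.21). As shares of UMIs in unthinned cells, cells above the same level were 0%, 8.69% and 1.08%. The limit marks a range and not a cell type: at 1.2 µM 14 cells had 9 UMIs and 9 had 10, and the highest had 79.

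Such cells were present at every dose. In order of dose from 8 to 600 nM they were 1.48%, 4.96%, 5.26%, 2.96%, 4.80%, 2.90% and 4.85% of cells, with unthinned values of 1.25% to 4.33%. At 1.2 µM they held 38.8% of these member UMIs and in persisters 7.29%. In the remaining cells the mean was 2.97 at 1.2 µM and 3.16 in persisters, against 1.48 in untreated cells. Without them 15 of 32 members were at least 2-fold higher at 1.2 µM and 11 at 8 nM. Of the 10 that were lower in persisters than at 1.2 µM, 5 were then still 2-fold lower (OAS2, OAS3, MX1, BST2 and USP18), of which OAS3 and MX1 still passed the minimum of 10 CPM, and 5 were not (OAS1, OASL, MX2, IFIT1 and HERC5). The median between persisters and 1.2 µM was then 0.15 in place of -0.53. Leaving cells out by their member UMIs lowers the members by construction, and cells under 4000 UMIs were left out with them. The share of all genes called without these cells is not reported here, so these counts have no background beside them. In A375 25 of 625 cells at 4 µM (4.00%, unthinned 2.40%) and 4 of 1951 untreated cells (0.205%, unthinned 0.0513%) had at least 10 member UMIs, and the other cultures had 1.01% to 3.19% (unthinned 0.163% to 1.35%).

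**Figure D4:**
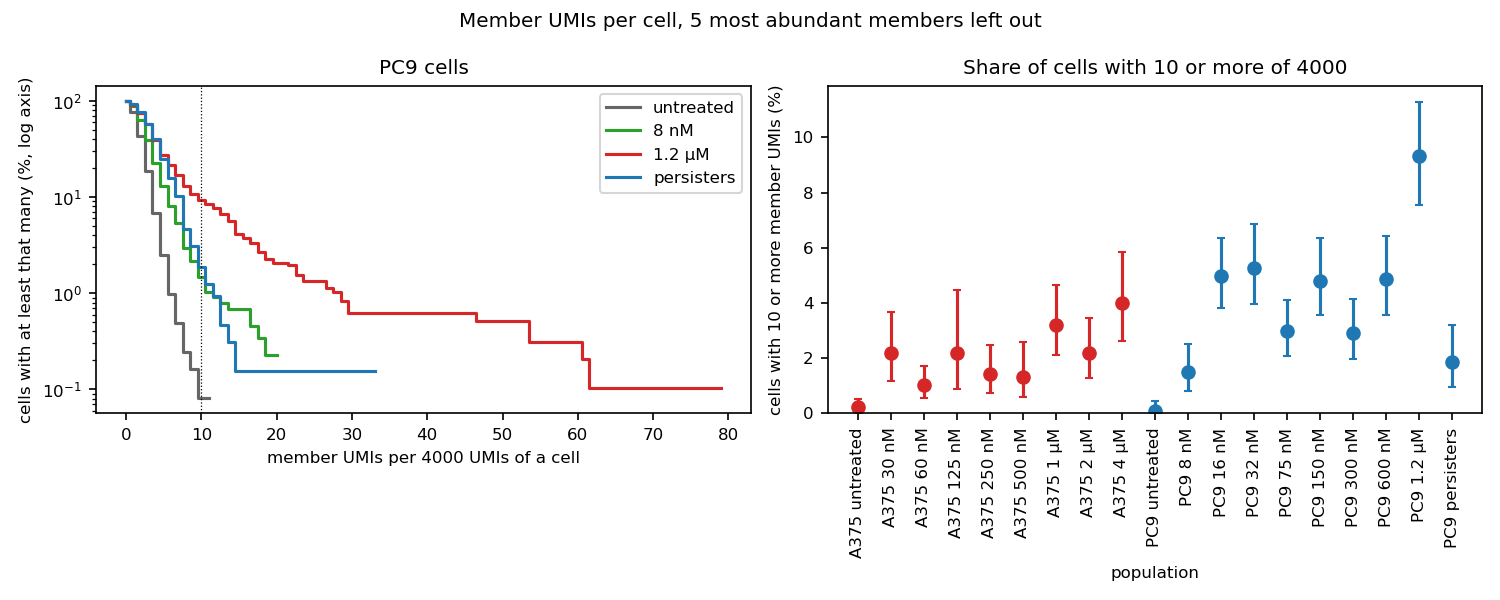
Left, share of PC9 cells (log axis) with at least a given number of member UMIs per 4000, members other than the 5 most abundant, for untreated cells, 8 nM, 1.2 µM and persisters. Right, share of cells with at least 10 by population in both lines, with exact binomial intervals; 9.31% at 1.2 µM stands above the persisters' 1.85%.

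Whether members were high together in the same cells was read from separate genes. Cells were chosen by at least 5 UMIs from 22 members of PC9, and the other 21 members, not used in the choice, were read out. At 1.2 µM the 127 chosen cells had a mean of 5.39 UMIs of the second set and the other cells 1.39, a ratio of 3.88. The ratio was 4.44 at 16 nM and 6.92 at 75 nM, and 1.48 for the 64 chosen persisters. In A375 it was 1.57 at 4 µM and 1.05 in untreated cells. Of the 19 members of the second set with at least 20 UMIs, 18 were at least 2-fold higher in the chosen cells at 1.2 µM, with a median of 3.35, where 2.35% of 11533 genes not used in the choice were. In persisters it was 6 of 16, with a median of 1.61, against 2.73% of 10821 genes. These cells share 1 culture, and the values describe it.

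At 1.2 µM MX1 was 231 CPM in the chosen cells and 33.0 CPM in the others (ratio 7.0, 5.75 to 8.53). IFI6 was 166 and 24.4 CPM, IFIT2 116 and 18.1 CPM, and HERC5 106 and 13.9 CPM. In persisters the same comparison gave smaller ratios for these genes, with 25.8 and 9.70 CPM for MX1 (2.67, 1.19 to 5.44), 49.1 and 22.9 CPM for IFI6 (2.15, 1.24 to 3.55) and 31.0 and 9.94 CPM for HERC5 (3.12, 1.49 to 6.06). IFIT2, with 36.2 and 27.8 CPM (1.30, 0.688 to 2.27), was within counting error. Outside the member list the chemokine gene CCL5 was 94.0 CPM in the chosen cells and 2.57 CPM in the others (36.6-fold, 21.3 to 67.0). JAK1 was level, with 302 and 311 CPM, and B2M was 1212 and 831 CPM. The chosen cells had a median of 6751 UMIs and the others 7101, and a mitochondrial share of 8.26% and 8.38%. PTPRC had 1 UMI in the chosen cells, and the 5 epithelial markers had ratios of 1.03 to 1.44, so the defining leukocyte marker was near 0 in them. Cells listed in the authors' cell table were 52.0% of the chosen cells and 32.4% of the others. The part of that difference in the result was not tested.

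**Figure D5:**
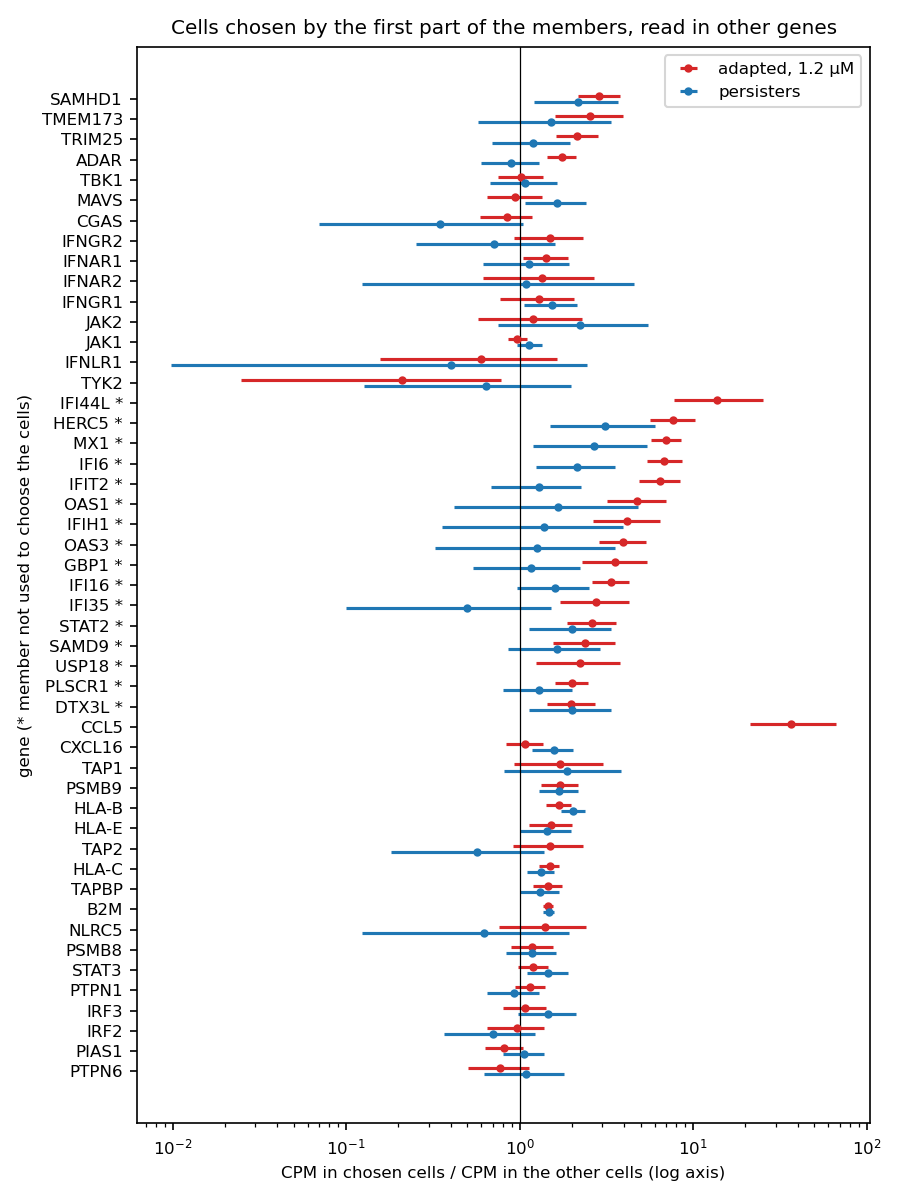
Ratio of CPM in cells chosen by 22 members to CPM in the other cells (log axis) for PC9 at 1.2 µM and in persisters, for members not used in the choice (marked with an asterisk) and genes of the pathway, with 95% exact counting intervals as bars. CCL5 and MX1 lie at 36.6 and 7.0 at 1.2 µM, while JAK1 lies at 0.972.

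Single genes gave differing pictures. An MX1 UMI was found in 1.54% of untreated PC9 cells at 4000 UMIs (unthinned 2.21%), 5.11% at 8 nM (8.09%), 16.3% at 1.2 µM (23.0%) and 4.32% of persisters (6.44%). Untreated cells were in the same pool, and the part of RNA free in the pool in these shares was not tested. Cells with an MX1 UMI had 2.82 times the other member UMIs of cells without one at 1.2 µM and 1.30 times in persisters. IRF1 behaved differently, with a UMI in 4.29% of untreated cells (8.97%), 8.27% at 1.2 µM (13.7%) and 20.1% of persisters (27.9%). Persisters with an IRF1 UMI had 1.08 times the other member UMIs of those without. At 4000 UMIs the share was also larger in persisters than at 1.2 µM for GBP1 (8.18% and 4.96%) and IFITM3 (33.5% and 29.3%). The shares were nearly level for IFIT2 (9.88%, 7.69 to 12.4, and 8.69%, 6.99 to 10.6), PARP14 (23.0% and 21.3%) and XAF1 (10.2% and 10.7%). The share was smaller in persisters for ISG15, IFI6, EPSTI1 and ISG20. For each gene named here after IRF1 the exact binomial intervals of persisters and 1.2 µM cells overlapped.

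The genes that carry the signal were read from fixed lists. Of 11 interferon genes IFNE alone was in the tables, at or under 3.67 CPM in every population. None of the 6 receptor and kinase genes past the minimum was 2-fold higher at 1.2 µM in PC9 or 4 µM in A375. In PC9 persisters IFNGR1, a chain of the interferon gamma receptor, was 69.1 CPM, against 16.6 CPM in untreated cells (4.16-fold, 3.46 to 5.03) and 18.7 CPM at 1.2 µM. JAK1 was 156 CPM in untreated PC9 cells, 307 CPM at 1.2 µM and 385 CPM in persisters. STAT3, which mainly serves other cytokines, was 50.6 CPM in untreated PC9 cells, 109 CPM at 1.2 µM (2.14-fold, 1.92 to 2.40) and 117 CPM in persisters, and in A375 it was 105 CPM untreated and 184 CPM at 4 µM.

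CCL5, which draws T cells, was 0.569 CPM in untreated PC9 cells, 8.67 CPM at 8 nM, 2.65 to 10.4 CPM from 16 to 600 nM, 13.7 CPM at 1.2 µM and 0.407 CPM in persisters. The fold at 1.2 µM was 24.0 (10.7 to 67.0), and persisters were on the untreated side. The antigen presentation genes went the other way. Of 12 past the minimum, HLA-B, HLA-F and PSMB9 were 2-fold higher at 1.2 µM (6.50% of all genes), and 8 were in persisters (10.6%), HLA-B, B2M and PSMB9 among them. HLA-B was 39.8 CPM in untreated cells, 131 CPM at 1.2 µM and 267 CPM in persisters, and B2M 589, 888 and 1629 CPM. CGAS, the sensor of cytosolic DNA, was 56.1 CPM untreated, 51.4 CPM at 1.2 µM and 20.2 CPM in persisters, and STING (TMEM173) 5.21, 14.9 and 13.4 CPM. In A375 at 4 µM HLA-F and NLRC5 of 13 antigen presentation genes were 2-fold higher (5.63% of all genes), and B2M was 906 CPM untreated and 1694 CPM at 4 µM.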

How the data were processed

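Raw UMI counts, per the labels, fill the deposited gene-by-cell tables of pooled, tag-labelled 3′ libraries, and the authors' cell tables list a subset of cells with total counts, percent of mitochondrial UMIs and a cluster, per the file headers. Cell Ranger 7.0.0 and the GRCh38 build are named in the submitters' processing notes. The authors' cell tables carry the label G1 in their names. By what criterion the listed cells were chosen, and which genes and cells were removed before deposition, is not given in the sources used here. Cell names end in the label of their population, which is the only use made of the tag libraries, and do not separate the 2 sequencing runs of A375.

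All cells were used (258 A375 cells had 20% mitochondrial UMIs or more). No doublet caller was run. Counts were summed per population and divided by its total (CPM). A member was called higher or lower when log2(CPM + 1) differed by at least 1 with at least 20 UMIs in the higher population. UMI counts of 3′ ends are not scaled by transcript length. Ratios carry Clopper-Pearson 95% intervals, and cells were thinned to 4000 UMIs. Both intervals assume independent molecules and cover counting error only. The calling and interval steps were tested on simulated data. In each of 6 comparisons the text names the 5 highest and 5 lowest ratios among members with at least 25 CPM, with genes of fixed pathway lists, of which some are not reported here. Members shown by dose or for single cells were chosen after their values were seen. The members, lists and promoter motifs were chosen with earlier results of these data known. Python 3.11.15, numpy 2.4.6, scipy 1.17.1, pandas 2.3.3 and edgeR 4.0.16 (R 4.3.3, scaling factors only) were used.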

Additional observations from a re-analysis of the deposited data

Results flagged for a closer look

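MX2 and HERC5 lay on opposite sides of the untreated culture in the 2 lines. How many of all genes did so was not counted. HERC5 was lower than in untreated cells in every A375 population, with a median difference of -1.54 on the log2(CPM + 1) scale, and higher in every treated PC9 population, with a median of 1.00. The medians lie 2.54 apart. In A375 its level was 8.78 CPM in untreated cells and 2.09 CPM at 4 µM, under the minimum of 10 CPM in every culture. MX2 had a median of -0.15 in A375 and 2.16 in PC9, which lie 2.31 apart. Its A375 levels were all close, from 36.8 CPM in untreated cells to 31.7 CPM at 1 µM, so the lower side rests on small differences. At 30 nM it was 36.5 CPM (ratio 0.993, 0.859 to 1.14), within counting error, and the sign there changed in several alternative settings. A steady lower level of MX2 in A375 is thus not shown. The difference between the lines was not tested, since each population is 1 culture.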

How the results depend on the processing

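No paired analysis was possible because each population is 1 culture and the run numbers of the A375 labels are not in the cell names. For the same reason no replicate could be left out. The share of all genes called is not reported for the settings below, other than that with no minimum, given above. Counts of 2-fold higher members depended on the minimum level. With 50 CPM they were 3 (A375 4 µM), 2 (30 nM), 4 of 11 (PC9 1.2 µM), 4 (8 nM) and 5 (persisters). With no minimum they were 11, 8 and, for persisters against 1.2 µM, 2. A 3-fold threshold gave 2, 0, 5 (PC9 8 nM) and 0 (persisters against 1.2 µM). A pseudocount of 5 CPM gave 1 at A375 30 nM and 8 at PC9 8 nM, and averaging over cells 11 at 4 µM and 8 at 30 nM. The A375 30 nM count was 8 with totals free of mitochondrial and ribosomal protein genes and 9 without cells above 2 times the median UMIs. The PC9 1.2 µM median of 1.60 became 1.30 with a pseudocount of 5 and 0.81 at 50 CPM. The median between persisters and 1.2 µM of -0.53 became 0.05 at 50 CPM, where 11 members are left. Another setting, chosen after seeing the data, left out cells of 10 or more member UMIs and cells under 4000 UMIs. Counts were then 15 (1.2 µM) and 11 (8 nM), and the medians 0.99 and 0.15. The per-cell ratio to untreated cells was 1.33 in A375 at 4 µM, 1.61 without the 5 most abundant members and 1.25 in the authors' listed cells, and in PC9 at 1.2 µM 2.04, 2.95 and 2.30, with 2.12 at 2000 UMIs. Using only cells of at least 4000 UMIs, also added after seeing the data, left 27 higher members at 1.2 µM and 16 in persisters. Apart from constructions that drop genes or cells, the cause was not tested. Of 88 calls of members past the minimum in 6 comparisons, 53 were made, by size and UMIs alone, in each of 14 alternatives (the 3-fold threshold left out), and 11 were lost in 3 or more: SAMD9L (A375 4 µM), IFITM2 (A375 30 nM), IFIH1, MX2, IFIT1 and BST2 (PC9 8 nM), MX2, IFIT1, HERC6 and ISG20 (persisters) and HERC5 (persisters against 1.2 µM). Depth limits members near the floor: 3 counts are 0.284 CPM in untreated PC9 cells and 0.611 CPM in persisters.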

Other observations

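The cells listed in the authors' cell table had higher summed member levels, without the 5 most abundant, than the cells not listed in every population of both lines. At 1.2 µM in PC9 the sums were 1407 and 938 CPM and in persisters 921 and 563 CPM. The listed share was 12.9% of untreated PC9 cells, 36.8% at 1.2 µM and 81.8% of persisters. That table carries the label G1 in its name, and the part of the cell cycle in these values was not tested. By the authors' PC9 clusters the sum was 1276 CPM in cluster 2 and 1268 CPM in cluster 4, 940.3 CPM in cluster 1, of which 83.4% were persisters, 463 CPM in cluster 3 and 391 CPM in cluster 0, of which 95.4% were untreated cells. In A375 it went from 740.3 CPM in cluster 0 to 1586 CPM in cluster 5, which held 146 cells.

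Among non-member genes of PC9 with at least 25 CPM, those whose level followed the members' mean most closely over the 10 populations were NDUFA2, a respiratory chain subunit (Pearson r 0.97), GAB2, a docking protein (0.95), and DDX60L, a relative of the sensor DDX60 (0.94). In A375, over 9 populations, they were C6orf89 and BACE1 (0.97 each) and B2M (0.96). The populations of a line share their pool and their untreated culture, and these values describe them.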
